A study of Equus caballus with 28 samples.

Results

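Synovial fluid libraries rich in the miRNAs of red blood cells were compared with libraries poor in them. The classes were defined by the share of miRNA reads held by miR-486-5p, miR-451 and miR-144 together: at least 30% made a library blood-rich, and a lower share made it blood-poor. Of the 17 synovial fluid libraries, 9 were blood-rich and 8 were blood-poor, and the series holds 28 libraries in all, of which 11 are plasma of the same horses. The names describe reads only, and no cell count or haemolysis measurement of the fluids was used here.

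The horses had osteoarthritis (OA) of the distal interphalangeal joint, the joint within the hoof, graded as mild or as moderate to severe (called severe here) from the surface and the histology of the cartilage. All had been euthanised for clinical disease, were of several breeds and both sexes, were between 5.17 and 34.3 years old and had received no treatment that the labels name, and no horse without OA was included. The fluid was drawn by needle after death and centrifuged to clear debris before RNA was extracted, with 1 library per horse. The labels name chondrocytes as the source although they give synovial fluid or plasma as the biofluid, and the libraries are described here by the biofluid. Horses are called M1 to M5 (mild OA) and S1 to S12 (severe OA). The blood-rich class held 3 libraries of mild and 6 of severe OA, and the blood-poor class held 2 and 6.

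Red blood cells lose their nucleus as they mature but keep a store of small RNA, in which miR-486-5p, miR-451 and miR-144 are prominent. miR-451 and miR-144 come from a shared locus that is switched on during red cell formation, and these miRNAs are widely used as signs of red cells or haemolysis in plasma and serum. Synovial fluid is a filtrate of plasma joined by secretions of the joint lining, and a needle or an inflamed, vascular synovium can add blood to it.

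The summed share of the 3 miRNAs, which chose the classes and is therefore only described, was between 32.5% and 74.3% in blood-rich libraries, with a median of 42.3%. It was between 7.38% and 21.8% in blood-poor libraries, with a median of 12.7%. The library just inside the threshold was S9 at 32.5% (95% Wilson interval 32.2% to 32.8%), and the library just outside was M1 at 21.8% (21.7% to 22.0%), so no library fell within the 10.7 points between them.

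miR-451 alone held 16.8% to 53.6% of miRNA reads in the blood-rich class and 3.81% to 12.8% in the blood-poor class. miR-486-5p held 7.31% to 32.4% and 3.29% to 8.87%. miR-144, which comes from the same locus as miR-451 but is far scarcer as a mature miRNA, held 0.135% to 0.699% and 0.0376% to 0.150%. Thus miR-451 separated the classes on its own, while the ranges of miR-486-5p and miR-144 overlapped. The makeup of the share also varied: there were between 0.855 and 3.62 reads of miR-451 per read of miR-486-5p in blood-rich libraries, and between 0.906 and 2.84 in blood-poor ones. S2, with 26.5% miR-451 and 7.31% miR-486-5p, reached the blood-rich class mostly through miR-451, whereas S7 held 27.7% and 32.4%.

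**Figure D1:**
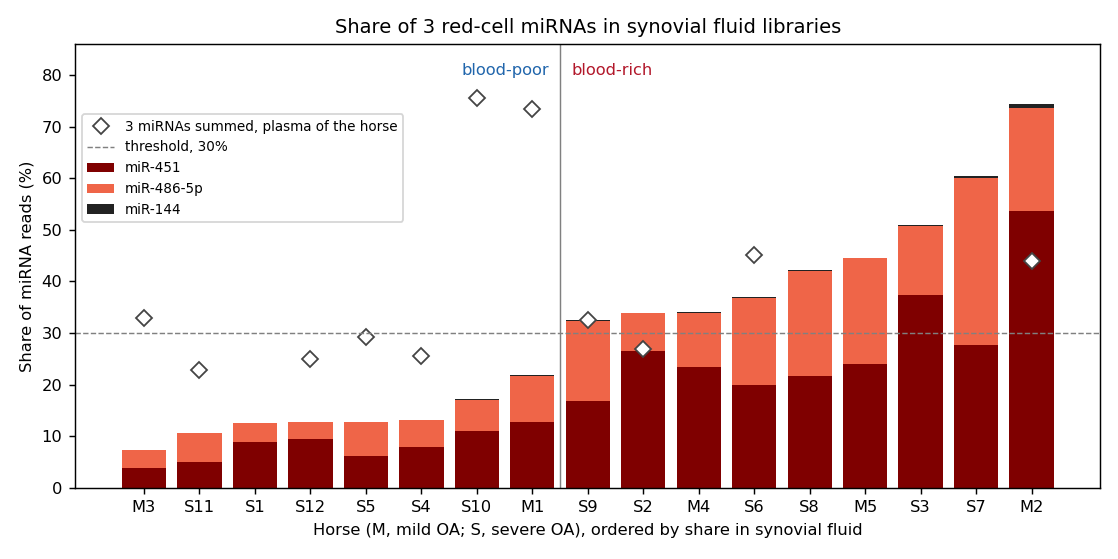
Stacked bars give the share of miRNA reads (%, y axis) held by miR-451 (dark red), miR-486-5p (orange) and miR-144 (black) in each of the 17 synovial fluid libraries (x axis, by horse, ordered by the sum), and diamonds give the summed share in the plasma of the 11 horses that have a plasma library. The 8 blood-poor libraries lie at or under 21.8% and the 9 blood-rich ones at or over 32.5%, while the 2 highest plasma shares, 75.6% and 73.5%, belong to the blood-poor horses S10 and M1.

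The share in synovial fluid and the share in plasma of the same horse were then set side by side. In plasma the 3 miRNAs held 26.9% to 45.1% of miRNA reads in the 4 horses with blood-rich synovial fluid, and 22.8% to 75.6% in the 7 horses with blood-poor synovial fluid. The mean was 37.1% ± 8.90 (SD, n = 4) against 40.7% ± 23.4 (SD, n = 7), a difference that an exact 2-sided permutation test over 330 assignments did not separate from none (p = 0.785, adjusted p = 0.883 over the 9 values compared between the classes). The ranges overlapped over the whole span of the blood-rich horses.

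The total of the other miRNAs, counted after removing the 3 rows, was 70035 to 367110 reads in blood-rich and 47537 to 193596 reads in blood-poor libraries. A count of 0 allows up to 3 reads, which is 8.17 to 42.8 CPM (reads scaled to a common total of these other reads) in a blood-rich library and 15.5 to 63.1 CPM in a blood-poor one, for counting error only. All miRNA reads, with the 3 rows included, numbered 110243 to 1431024 and 53194 to 247637. These totals include the rows that define the classes, so no conclusion is drawn from comparing them. Their logarithms were nevertheless among the 9 values compared between the classes (exact permutation test, p = 0.00625, adjusted p = 0.0563). The adjusted p-values of the other values in that set were therefore computed with this test included.

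Per read of the synthetic spike-in RNAs there were 0.317 to 8.99 reads of other miRNAs in blood-rich and 0.425 to 9.03 in blood-poor libraries, and this measure differed by 0.33 on the log2 scale (exact permutation test, p = 0.669, adjusted p = 0.860). The amount of other miRNA per spike-in read thus overlapped almost completely between the classes. The 3 rows themselves amounted to 0.152 to 5.27 reads per spike-in read in blood-rich and 0.0696 to 1.31 in blood-poor libraries. Between 215 and 263 other miRNAs had a read in a blood-rich library and between 192 and 260 in a blood-poor one (exact permutation test, p = 0.145, adjusted p = 0.624).

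Blood-rich horses had a mean age of 13.6 ± 6.88 years (SD, n = 9) and blood-poor horses of 18.8 ± 10.5 years (SD, n = 8), and the ages overlapped (exact permutation test, p = 0.240, adjusted p = 0.624). Severe OA was present in 6 of 9 blood-rich and 6 of 8 blood-poor horses (Fisher's exact test, 2-sided, p = 1, adjusted p = 1). Males made up 6 of 9 blood-rich and 3 of 8 blood-poor horses (Fisher's exact test, p = 0.347, adjusted p = 0.624). Since ages are not balanced between the classes, fold changes with age as a term are given for miR-486-3p, miR-25, miR-7 and miR-19a.

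After removal of the 3 rows and of the spike-ins, 380 miRNAs had at least 1 read in synovial fluid and the 215 that averaged 10 CPM or more were tested. Levels are given as CPM of the remaining miRNA reads, scaled by trimmed mean of M-values (TMM) factors. The means over all libraries that set the filters are CPM without these factors. Levels are shares of a library, so that more of one miRNA and less of the rest cannot be told apart. Nor can fewer cells of a type and less RNA per cell. By the quasi-likelihood test of edgeR, with p-values adjusted by Benjamini-Hochberg, 3 miRNAs had a false discovery rate (FDR) under 0.05, all higher in blood-rich fluid, which is 1.40% of those tested. They were miR-486-3p, miR-7 and miR-25. The fold changes of all 215 centred near 0, with a median log2 fold change (blood-rich minus blood-poor) of 0.04, and 115 were positive.

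miR-486-3p is the other strand of the hairpin that gives miR-486-5p, so it is not independent of the rule that defined the classes. It stood between 819 and 12444 CPM in blood-rich libraries, with a median of 3245, and between 185 and 946 CPM in blood-poor libraries, with a median of 299. All but 1 blood-rich library (S2, the lowest) lay above the highest blood-poor library (M1). The log2 fold change was 3.29 ± 0.53 (SE, FDR = 0.000446 by edgeR). With age as a term it was 2.91 ± 0.59 (FDR = 0.0127 by edgeR). In read counts miR-486-3p had 115 to 3463 reads against 12 to 195.

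The 2 strands did not keep a fixed ratio. Blood-rich libraries held 3.69 to 16.5 reads of miR-486-3p per 1000 reads of miR-486-5p, blood-poor libraries 4.06 to 8.87, and plasma 1.35 to 5.67. The synovial fluid ranges overlap each other.

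miR-25, which lies with miR-93 and miR-106b in one transcript and is abundant in red cells, stood between 32769 and 203475 CPM in blood-rich libraries (median 53691) and between 18746 and 42212 CPM in blood-poor libraries (median 30525). Of the 9 blood-rich libraries, 8 lay above every blood-poor library, and S2 fell among the blood-poor ones. The log2 fold change was 1.35 ± 0.33 (SE, FDR = 0.0271 by edgeR). The highest value was that of M2, the library with the largest share of the 3 rows. Counting the main fit, miR-25 was called in 16 of 22 settings. These include the threshold of 25%, which left the classes unchanged and so repeats the main fit. With age as a term the log2 fold change was 1.11 ± 0.33 (FDR = 0.220 by edgeR). It was 1.26 ± 0.33 without miR-486-3p in the counts (FDR = 0.0802) and 1.10 ± 0.29 with library size alone (FDR = 0.0679), and neither passed. With each horse left out in turn it ranged from 1.05 (without M2) to 1.47 and the FDR from 0.0189 to 0.136, and miR-25 was called in 5 of the 17 fits, those without M4, S2, S8, S9 or S10. miR-486-3p was called in all 17.

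miR-7, a miRNA best known from neurons and endocrine cells, was scarce. It stood between 39.8 and 816 CPM in blood-rich libraries (median 104) and between 0 and 61.3 CPM in blood-poor ones (median 18). In reads these are 4 to 227 against 0 to 10, and M3, S5 and S10 had none. The log2 fold change was 3.10 ± 0.71 (SE, FDR = 0.0224 by edgeR), and 7 of 9 blood-rich libraries exceeded the highest blood-poor one. Its mean over all libraries, 95.5 CPM without TMM factors, was under the 100 CPM set on that scale for the named miRNAs. It is named because it was called. With age as a term its log2 fold change was 3.21 ± 0.85 (SE, FDR = 0.114 by edgeR), as large as without it but with a wider error. In the severe OA libraries alone it was 1.87 ± 0.67 (FDR = 0.543 by edgeR). It was called in 13 of the 17 fits with a horse left out, and its FDR was 0.0684 without M1, 0.0751 without M2, 0.0561 without M3 and 0.0563 without S4.

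Just past the threshold was miR-19a, a member of the miR-17-92 cluster, a transcript of 6 miRNAs known for driving cell proliferation. It ranged from 4276 to 25377 CPM (median 7072) in blood-rich and from 2135 to 4744 CPM (median 3979) in blood-poor libraries. Again 8 of 9 blood-rich libraries lay above all blood-poor libraries, here with S9 as the exception. The log2 fold change was 1.25 ± 0.34 (SE, FDR = 0.0586 by edgeR). With age as a term it was 1.11 ± 0.36 (FDR = 0.266 by edgeR). miR-19a is nearly identical to miR-19b, and with 1 mismatch allowed in the mapping the 2 can share reads. So can miR-107b with miR-107a and miR-103, miR-33b with miR-33a, miR-23b with miR-23a, miR-27b with miR-27a, and miR-106a with miR-17. Their separate values are therefore uncertain.

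**Figure D2:**
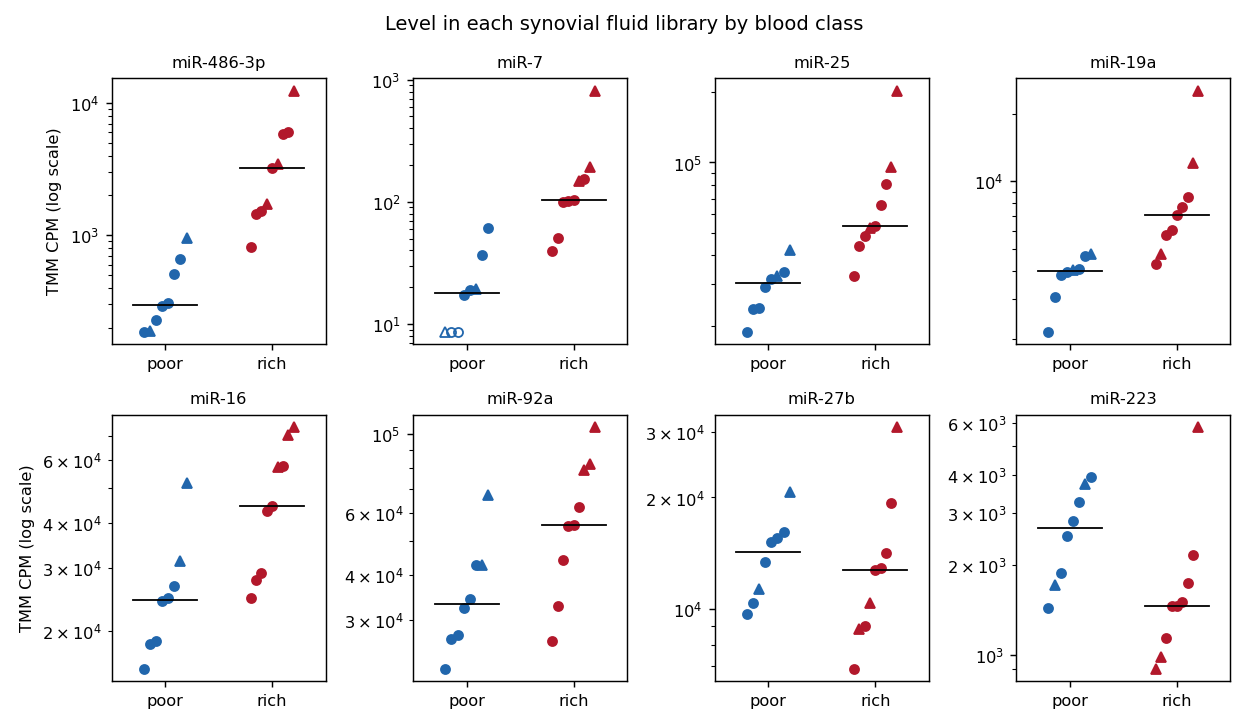
Each point is the level of a miRNA in 1 synovial fluid library (TMM CPM, log y axis) in the 8 blood-poor and 9 blood-rich libraries (x axis), triangles for mild OA, circles for severe OA, lines for medians, and open symbols at the foot of a panel for libraries with 0 reads. For miR-486-3p, miR-25 and miR-19a, 8 of 9 blood-rich libraries lie above every blood-poor library, whereas the classes overlap widely for miR-27b and miR-223.

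No tested miRNA separated the classes entirely: 0.00% of the 215 had every blood-rich library above every blood-poor one. At an unadjusted p under 0.05, 21 miRNAs (9.77% of those tested) were higher in blood-rich fluid and 2 were lower, and these do not pass the adjustment apart from the 3 called. That split depended on the scaling: it was 12 higher and 10 lower with library size alone, and 4 higher and 2 lower with spike-in scaling. Among the 141 that averaged 100 CPM or more, 17 were higher and 0 lower at that unadjusted level. The 2 lower ones, miR-8993 and miR-454, had at most 16 and 5 reads in any library, and miR-8993 had no read in 8 of 9 blood-rich libraries.

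**Figure D3:**
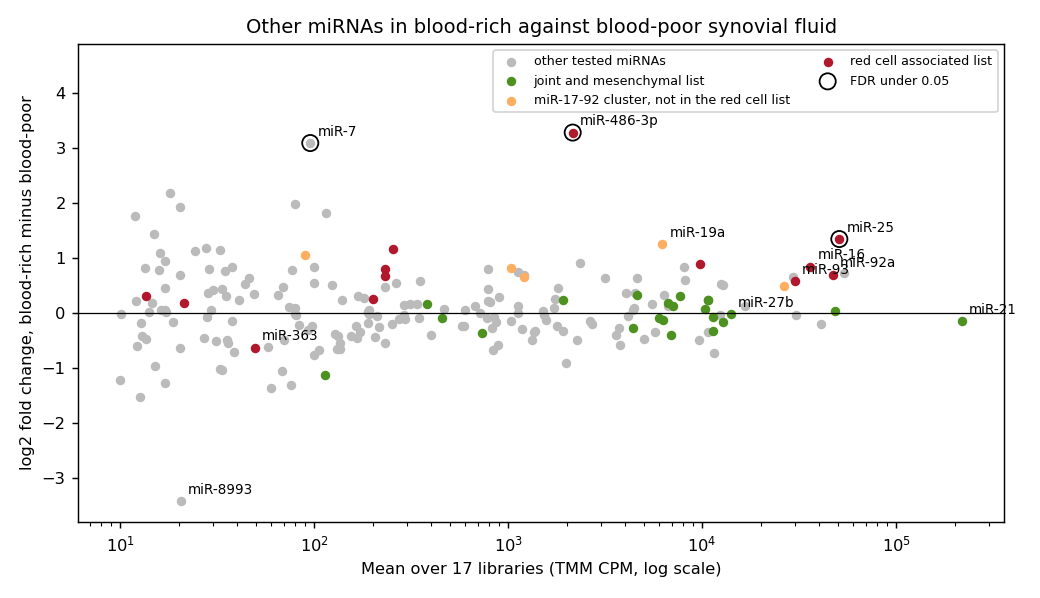
Each point is 1 of the 215 miRNAs tested, coloured by list, and circled points have an FDR under 0.05. The x axis (log) is the mean over the 17 libraries, labelled TMM CPM but plotted as CPM without TMM factors. The y axis is the log2 fold change, blood-rich minus blood-poor. Points of the red cell list (red) lie above 0 with the exception of miR-363, while the joint list (green) lies around 0, with miR-21 at -0.14.

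The red cell associated list holds 14 miRNAs known to be abundant in red cells or their precursors, beside the 3 of the rule, and 13 of them were tested. Of these, 12 had a positive fold change and 2, miR-486-3p and miR-25, passed the test, with a list median log2 fold change of 0.70 against 0.04 over all 215. Over all tested miRNAs 115 of 215 were positive and 1.40% passed. A further 6 list members had an unadjusted p under 0.05 without passing, which made 8 of 13 higher at that level against 9.77% over all tested. That count of 8 was 7 with upper-quartile factors, 6 with RLE factors, 4 with library size alone and 1 with spike-in scaling. It was 3 with age as a term and 4 in severe OA alone, and 8 without the libraries near the threshold. The list was drawn up with earlier results of these data known, and its counts are a description. Its tested members summed to 11.2% to 34.8% of the other miRNA reads in blood-rich libraries and 8.04% to 18.4% in blood-poor ones, ranges that overlap.

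miR-92a, the most abundant list member after miR-25, stood between 26177 and 104225 CPM in blood-rich libraries (median 55180) and between 21815 and 67145 CPM in blood-poor ones (median 33228). Only 3 blood-rich libraries, all of mild OA, exceeded the highest blood-poor library. Its log2 fold change was 0.70 ± 0.30 (SE, FDR = 0.330 by edgeR).

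miR-16, an inhibitor of cell cycle genes that is present in most cells and dense in red cells, stood between 24658 and 73856 CPM (median 44467) and between 15677 and 51692 CPM (median 24383). All 9 blood-rich libraries lay above the blood-poor median, and 4 above the blood-poor maximum, which was that of M1. Its log2 fold change was 0.85 ± 0.30 (SE, FDR = 0.178 by edgeR).

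miR-93, which shares its transcript with miR-25, ranged from 19727 to 54150 CPM against 16787 to 33189 CPM, a log2 fold change of 0.58 ± 0.24 (SE, FDR = 0.330). Values for miR-15a were 0.90 ± 0.35 (FDR = 0.271), for miR-15b 1.16 ± 0.51 (FDR = 0.364) and for miR-106b 0.80 ± 0.38 (FDR = 0.429), all by edgeR. Not every member moved this way. miR-363 had a log2 fold change of -0.62 ± 0.59 (FDR = 0.822) at 5 to 82 CPM in blood-rich and 6 to 153 CPM in blood-poor libraries. miR-182, miR-183, miR-96 and miR-20b had values of 0.67, 0.25, 0.32 and 0.18, each with a standard error at or close to its size or larger.

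Clusters of miRNAs transcribed together were then examined. The 6 miRNAs of the miR-17-92 cluster were all positive, from 0.49 (miR-19b) to 1.25 (miR-19a), with a median of 0.76 and 3 at an unadjusted p under 0.05, and 0 passed the edgeR test. The count at that unadjusted level was 3 with RLE or upper-quartile factors, 1 with library size alone or age as a term, and 0 with spike-in scaling. The 3 of the miR-106b-25 cluster were all positive with a median of 0.80, and 1, miR-25, passed. Over all tested miRNAs 115 of 215 were positive, 9.77% were higher at an unadjusted p under 0.05 and 1.40% passed. In the related miR-106a-363 cluster 2 of 3 tested were positive, with a median of 0.18, which was -0.06 with library size alone. Its positive member miR-106a had 642 to 3754 CPM in blood-rich libraries, where miR-17 had 642 to 3745 CPM. As miR-106a and miR-17 can share reads, their values are not separate observations. Genes were grouped with RefSeq on assembly TB-T2T, taking miRNA genes that start within 5000 bases of the next, which gave 26 groups with at least 2 tested hairpins. In 12 of them every tested miRNA was positive and in 7 every one was negative.

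The pairs miR-15b with miR-16 and miR-15a with miR-16, which are neighbours at 2 loci, had the highest group medians, 1.0 and 0.87. At the other end, 9 miRNAs of the cluster around miR-532, miR-362 and miR-660 were all negative, from -1.01 to -0.18 with a median of -0.41, none with an unadjusted p under 0.05.

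Lists of other tissues were examined alongside. The joint and mesenchymal list, which includes miR-140 of cartilage, miR-21 and miR-27b, had 22 of 24 members tested, 10 of them positive, a median log2 fold change of -0.04 (between -0.22 with library size alone and 0.06 with spike-in scaling), and 0 with an unadjusted p under 0.05. This list had a median of -0.02 with age as a term, 0.04 in severe OA alone, 0.06 without M4 and 0.09 without the libraries near the threshold. Its members held 21.7% to 51.0% of other miRNA reads in blood-rich and 37.7% to 51.9% in blood-poor libraries. miR-21, the most abundant miRNA after removal of the 3 rows, stood between 68266 and 689834 CPM in blood-rich and 124693 and 401583 CPM in blood-poor libraries, a log2 fold change of -0.14 ± 0.36 (SE, FDR = 0.944 by edgeR). The highest value was that of M4, whose TMM factor, 0.662, was the lowest of the 17.

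miR-27b, which the study used as a reference in qPCR, stood between 6890 and 30958 CPM in blood-rich libraries (median 12745) and between 9716 and 20740 CPM in blood-poor ones (median 14278), a log2 fold change of -0.01 ± 0.29 (SE, FDR = 0.987 by edgeR). The classes overlapped, and the spread was wider in the blood-rich class. miR-23b, its neighbour in the genome, had values of 2894 to 13820 CPM and 2366 to 8711 CPM.

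The leukocyte list had 9 tested members, 3 positive, with a median of -0.13 and 0 at an unadjusted p under 0.05. The median was -0.27 with library size alone, -0.41 in severe OA alone, -0.44 without M4 and -0.57 without the 3 libraries near the threshold. Each of these had 2 members lower at an unadjusted p under 0.05. It was -0.18 with RLE factors, -0.05 with upper-quartile factors or age as a term, and -0.03 with spike-in scaling. Each of those had 0 members at that level. miR-223, the main miRNA of neutrophils, stood between 902 and 5787 CPM in blood-rich libraries (median 1463) and between 1436 and 3944 CPM in blood-poor ones (median 2658). Its log2 fold change was -0.48 ± 0.36 (SE, FDR = 0.698 by edgeR). miR-146a, induced in inflammation, had -0.72 ± 0.51 (FDR = 0.650), miR-150 of lymphocytes 0.09 ± 0.63 (FDR = 0.987) and miR-342-3p -0.06 ± 0.30 (FDR = 0.987). The leukocyte list held 0.765% to 4.97% of other miRNA reads in blood-rich and 1.49% to 5.97% in blood-poor libraries.

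In the platelet and endothelial list 4 of 6 were positive, with a median of 0.25, which was -0.04 with library size alone. miR-191a, its most abundant member, had a log2 fold change of 0.73 ± 0.26 (SE, FDR = 0.178 by edgeR), with 48244 to 122705 CPM against 28607 to 63421 CPM. miR-221 had 0.14 ± 0.57, miR-222 0.36 ± 0.58 and miR-126-3p, the endothelial miRNA, -0.23 ± 0.45. None of these passed the test.

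The epithelial list had a median of -0.36 over 6 members. That median was -0.45 with library size alone, -0.01 with age as a term and 0.09 without the libraries near the threshold. In the liver list 1 of 2 tested was positive. In the muscle list miR-133a alone was tested and had -0.38 ± 0.64. The let-7 family had a median of 0.10 over 7, but its sign was not stable. It was -0.19 with library size alone, -0.22 with spike-in scaling, -0.22 without M2, -0.29 in severe OA alone, and -0.0021 and -0.024 with RLE and upper-quartile factors. The imprinted cluster of miR-127 and miR-379, miRNAs of fetal, placental and mesenchymal cells, had 10 of 35 members tested, 9 of them positive with a median of 0.82, and 0 with an unadjusted p under 0.05. Its most abundant member, miR-411, had a mean of 40.9 CPM, close to the level of 3 reads, and its values were 0.23 ± 0.60. The filter of 10 CPM used the mean over both classes, so a scarce member could pass it through the class where it was high. miR-382, for instance, averaged 16.4 CPM in blood-rich and 5.49 CPM in blood-poor libraries. The 9 positive of 10 are therefore only described.

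**Figure D4:**
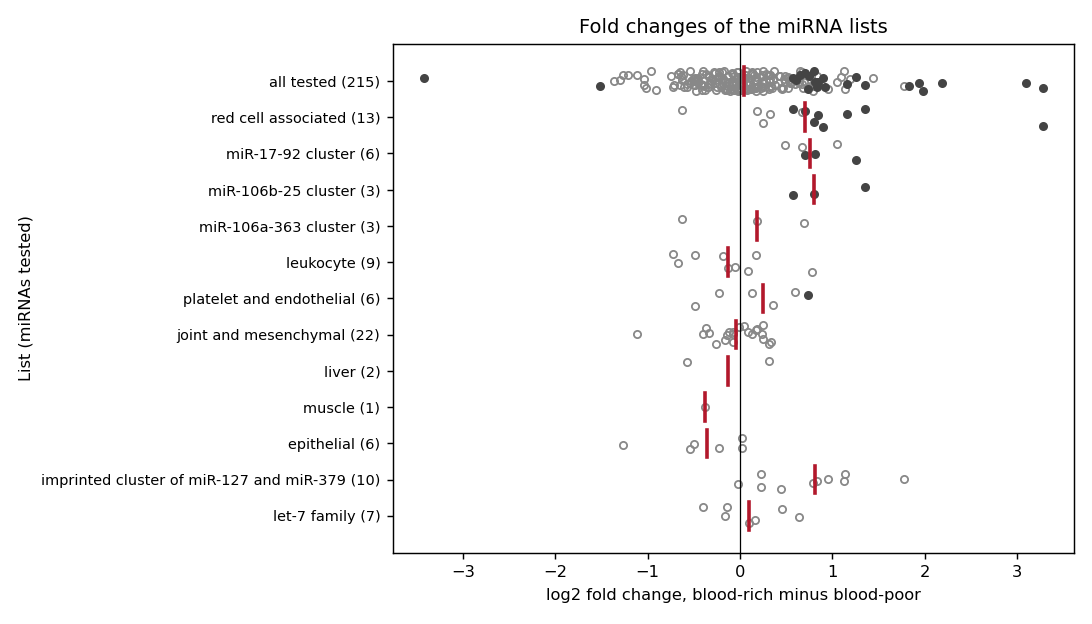
Each point is the log2 fold change, blood-rich minus blood-poor (x axis), of 1 tested miRNA in the list named on the y axis with its number of tested members; filled points have an unadjusted p under 0.05 and red bars are medians. The medians of the red cell list, the miR-17-92 cluster and the miR-106b-25 cluster are 0.70, 0.76 and 0.80. Those of all 215 miRNAs and of the joint list are 0.04 and -0.04. The sign of the joint list turned with spike-in scaling, in severe OA alone, without M4 and without the libraries near the threshold. The imprinted cluster, whose members are scarce, has the highest median, 0.82.

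Depending on the scaling, the median of all tested miRNAs moved. It was -0.13 with library size alone against 0.04 with TMM, and 87 rather than 115 of the 215 were then positive. The median of the red cell list was between 0.54 and 0.91 over the TMM, RLE, upper-quartile, library size, spike-in and restricted TMM scalings, and that of the miR-17-92 cluster between 0.54 and 0.86. Scaled by the spike-in uniSp2, 0 miRNAs passed the test by edgeR, with 6 at an unadjusted p under 0.05, and miR-486-3p then had a log2 fold change of 3.15 ± 0.87 (SE, FDR = 0.0620). DESeq2 on the same counts called 5.

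The classes cut a continuous measure, and the fit was repeated on it as the log2 ratio of the 3 rows to the other miRNA reads. This is the value that set the classes over the reads being tested, so it is no separate evidence for them. By edgeR 10 miRNAs then had an FDR under 0.05: miR-486-3p, miR-7, miR-25, miR-19a, miR-16, miR-2483, miR-33b, miR-107b, miR-15a and miR-196b. Per doubling of the ratio the log2 level differed by 1.24 for miR-486-3p, 0.52 for miR-25 and 0.33 for miR-16.

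Levels in plasma were set beside those of both classes, as CPM of the other miRNA reads without TMM, since the fluids were not scaled together. The medians of miR-25 were 31201 CPM in blood-poor fluid, 58792 in blood-rich fluid and 76264 in plasma. The medians of miR-19a were 4116, 6782 and 17244 CPM, and those of miR-16 were 25305, 41279 and 51870 CPM. For these 3 the order was the same, although the ranges of blood-rich fluid and plasma overlapped for each.

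Other members did not follow that order. miR-486-3p had medians of 344 CPM in blood-poor fluid, 2308 in blood-rich fluid and 487 in plasma, and miR-15a of 8154, 10964 and 6286 CPM. miR-223 had medians of 3097, 1486 and 11568 CPM, and miR-142-5p, a miRNA of blood cells in general, 1021, 966 and 8196 CPM, with every plasma library above every synovial fluid library for both. miR-363, of the red cell list, had 59.0, 32.5 and 1114 CPM.

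Members of the joint list differed among themselves. miR-99a had medians of 43420 CPM in blood-poor and 44543 CPM in blood-rich fluid against 1244 CPM in plasma. The 2 strands of miR-140 of cartilage went different ways, with 487, 335 and 42.9 CPM for miR-140-5p and 295, 217 and 341 CPM for miR-140-3p, which was highest in plasma.

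The rank correlation of a synovial fluid library with the plasma of its own horse, across the 215 miRNAs without the 3 rows, was 0.697 to 0.807 in the 7 blood-poor horses and 0.661 to 0.790 in the 4 blood-rich horses. These are given as a description, since miRNAs are not independent replicates. M2, with the highest share of the 3 rows in fluid, had 0.774, and M3, with the lowest, 0.763.

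The plasma libraries were compared by the class of the synovial fluid of their horse, with the 3 rows left in, to see whether plasma differed in the same way. Of 187 miRNAs tested between 4 and 7 libraries, 0 passed an FDR of 0.05 by edgeR (0.00%), with 3 at an unadjusted p under 0.05, and DESeq2 called 0, with 5. The smallest p-values were those of miR-328, miR-598, miR-23a, miR-150 and miR-143, each with an FDR of 0.899. In plasma miR-451 had a log2 fold change of -1.20 ± 0.97, miR-486-3p of -0.42 ± 0.56 and miR-25 of -0.94 ± 0.60 (SE, FDR of 0.899 to 0.907 by edgeR).

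Among 13 tested red cell list members in plasma, 3 were positive, with a median log2 fold change of -0.36. The signs are those of the horses' classes by fluid, and the highest plasma shares of the 3 rows were in the blood-poor horses S10 and M1.

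The study asked which miRNAs differ between mild and severe OA, and this was repeated with and without the blood class. Without the 3 rows and with no class term, 1 of 215 miRNAs (0.465%) had an FDR under 0.1 by edgeR, miR-140-3p, a strand of the cartilage miRNA miR-140. It is not among those the study reported. With the class as a term 4 did (1.86%), all lower in severe OA: miR-140-3p, miR-92a, miR-16 and miR-142-5p. Both fits use the same libraries and their values are given side by side.

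miR-92a had a log2 fold change (severe minus mild) of -0.97 ± 0.28 (SE, FDR = 0.172) without the class and -0.90 ± 0.24 (FDR = 0.0837) with it, both by edgeR. Its levels within blood-rich fluid were 78826 to 104225 CPM in the 3 mild and 26177 to 62080 CPM in the 6 severe OA libraries, without overlap. Within blood-poor fluid they were 42842 and 67145 CPM in the 2 mild and 21815 to 42714 CPM in the 6 severe OA libraries. There M1, at 42842 CPM, stood only just above S5, at 42714 CPM. How many of the tested miRNAs separate the OA groups within a class is not given here.

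miR-16 had -0.94 ± 0.30 (FDR = 0.208) without and -0.89 ± 0.24 (FDR = 0.0837) with the class, by edgeR. Blood-rich libraries of mild OA held 57404 to 73856 CPM and those of severe OA 24658 to 57753 CPM. Blood-poor libraries held 31355 and 51692 CPM in mild and 15677 to 26659 CPM in severe OA. The groups overlapped slightly in blood-rich fluid and did not overlap in blood-poor fluid, where only 2 libraries were of mild OA.

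miR-25 had -1.07 ± 0.38 (FDR = 0.208) without and -0.85 ± 0.28 (FDR = 0.204) with the class, by edgeR. In blood-rich fluid it stood at 52642 to 203475 CPM in mild and 32769 to 81205 CPM in severe OA, and in blood-poor fluid at 32693 and 42212 CPM against 18746 to 34091 CPM, so that it overlapped in both. Adding the class changed these 3 fold changes by less than their standard errors.

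miR-140-3p had -1.98 ± 0.47 (FDR = 0.0666) without and -2.03 ± 0.49 (FDR = 0.0837) with the class, and miR-142-5p -1.13 ± 0.33 (FDR = 0.172) and -1.19 ± 0.33 (FDR = 0.0965), by edgeR. The level of miR-140-3p overlapped between OA groups in blood-rich fluid (128 to 2127 CPM against 55.4 to 310 CPM), as well as in blood-poor fluid (327 and 1173 CPM against 137 to 356 CPM). miR-27b, miR-223 and miR-23b had values with the class of -0.35, -0.43 and -0.25, none with an FDR under 0.1.

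These calls depended on the scaling, on age and on single libraries. Without the class 0 miRNAs had an FDR under 0.1 with RLE, upper-quartile or library size scaling or with age as a term, and the same holds for the fit with the class. With each horse left out in turn, miR-92a and miR-16 were called with the class in 2 of the 17 fits, those without M4 or S10. miR-142-5p was called with the class in 1 of the 17 fits. miR-140-3p was called in 4 of them with the class and in 5 without it. With the class, its log2 fold change then lay between -2.27 and -1.14. The 5 mild OA horses were 5.17 to 13.0 years old.

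**Figure D5:**
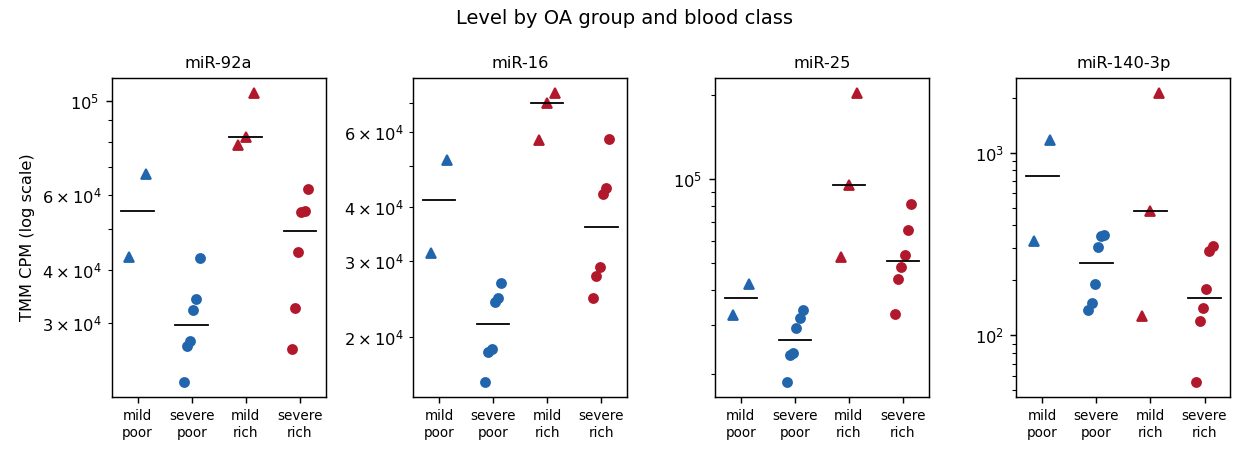
Each point is the level of a miRNA in 1 synovial fluid library (TMM CPM, log y axis) by OA group and blood class (x axis: 2 mild and 6 severe blood-poor, 3 mild and 6 severe blood-rich libraries), with lines for medians. For miR-92a the mild OA libraries lie above the severe ones within each class, in blood-poor fluid only just (M1 at 42842 and S5 at 42714 CPM). For miR-140-3p the OA groups overlap within both classes.

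Whether the class difference itself varied with the OA group was tested with an interaction term, which was added after the data had been seen. Of 215 miRNAs 0 had an FDR under 0.05 by edgeR, with 10 at an unadjusted p under 0.05 and a smallest FDR of 0.655, and no other tool was run. The log2 fold change of miR-486-3p (blood-rich minus blood-poor) was 3.36 ± 1.01 in mild and 3.12 ± 0.61 in severe OA. That of miR-25 was 1.65 ± 0.53 and 1.02 ± 0.32. The values of miR-7 were 4.99 ± 1.28 and 1.80 ± 0.71 (interaction p = 0.0317, FDR = 0.825 by edgeR). In the 12 severe OA libraries alone, miR-486-3p was the 1 miRNA called, at 3.14 ± 0.52 (SE, FDR = 0.0025).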

How the data were processed

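Small RNA was sequenced with an Illumina instrument after preparation with a kit for biofluids. The authors trimmed the reads with cutadapt, mapped them with Bowtie to the horse genome EquCab3.0 and then to horse miRNAs of miRBase with a mismatch allowed, and deposited for each library the count of reads of 690 miRNAs and of spike-ins without normalisation. The RPM values the authors deposited beside them, relative to all reads of a library, served only to recover library totals. The study's methods describe synovial fluid, and for plasma the labels name the same tools. The groups came from the labels, and plasma was matched to fluid by breed, age and sex. Libraries held 4547628 to 24945161 reads in synovial fluid.

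The 3 rows were summed per library, the classes set at 30%, and the rows and the spike-ins removed. The rest, where the mean reached 10 CPM, went into edgeR 4.0.16 in R 4.3.3 (older quasi-likelihood test, TMM factors), with an FDR of 0.05 for the class and 0.1 for OA. DESeq2 1.42.0, other scalings, filters, thresholds and covariates, and each horse left out, were alternatives. A standard error is the fold change divided by the root of its F statistic. For single values exact tests were run in Python 3.11.15 with scipy 1.17.1. The procedure was tested on simulated counts. The Wilson intervals cover counting error only, since PCR copies were not told apart. The titles begin with the same run name in all 28 libraries, no extraction batch is given in the sources used here, and the p-values measure the spread between horses.

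The classes, members and lists were chosen with earlier results of these data known. The miRNAs named are those of the rule, those the study names, the called ones that reached 100 CPM on average, the called or 5 smallest p-values of the other comparisons, and up to 4 of the most abundant of each list. miR-7, miR-19a, the other values at an unadjusted p under 0.05, further list members and neighbours were named after their values were seen.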

Additional observations from a re-analysis of the deposited data

Results flagged for a closer look

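A library was flagged where the highest or lowest value of a class stood further from its neighbour than Dixon's 95% limit. Of 42 groups of values examined 13 were flagged. Chance alone flags about 5% only where values are independent and normally distributed. These groups share libraries and hold values that were not log-transformed, so the 13 are not set against that share. No explanation was tested for any of them.

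In 7 of the 13 the library was M2, the one with the largest share of the 3 rows. Its miRNA reads numbered 1431024, against 515223 in the next blood-rich library. These totals include the 3 rows of the rule, which held 1063914 of the reads of M2. miR-486-3p stood at 12444 CPM in M2 against 6045 in the next, and miR-7 at 816 against 192 CPM. miR-25 was at 203475 against 95364 CPM, miR-19a at 25377 against 12114 CPM, miR-107b at 19254 against 11853 CPM and miR-15a at 33854 against 16574 CPM. Without M2 the log2 fold change (blood-rich minus blood-poor) was 2.95 for miR-486-3p and 2.38 for miR-7.

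M4 was flagged for miR-21, 689834 against 222076 CPM, and for miR-223, 5787 against 2171 CPM. M5 was flagged for its library reads, 24945161 against 12564605, and for miR-23b, 13820 against 7659 CPM. In the blood-poor class M1 was flagged for miR-16, 51692 against 31355 CPM, and M3 for miR-92a, 67145 against 42842 CPM. All of these are libraries of mild OA.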

How the results depend on the processing

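The number of miRNAs called between the classes, 3, stayed within 1.5 times with RLE or upper-quartile factors, no filter or a filter of 100 CPM. The same held with restricted TMM, independent filtering, OA group or sex as a term, a threshold of 40%, and an FDR of 0.1. A threshold of 25% left every library in its class, so it repeats the main fit and could not change the count. At 40% the count was 3, but miR-7 was not among those called (FDR = 0.0670 by edgeR). miR-486-3p then had a log2 fold change of 2.42 (FDR = 0.0438 by edgeR). The count was 1 with library size alone, with age, with OA group and age, in severe OA alone and without miR-486-3p. It was 5 with DESeq2 and with the newer quasi-likelihood test, 0 with uniSp2 and 7 with the 3 rows kept. It was 6 without the libraries within 5 points of the threshold, 10 on the continuous ratio, and 1 to 3 with a horse left out. The severity count without the class, 1, was 0 with RLE, library size, upper-quartile factors, age or the 3 rows kept, 3 with a filter of 100 CPM or DESeq2, 5 with the newer test, and 0 to 2 with a horse left out. With the class, 4 became 0 with those 3 scalings and with age, 1 with no filter, 7 with the newer test, and 0 to 6 with a horse left out. The plasma comparison gave 0 throughout.

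miR-27b turned to a log2 fold change of 0.12 with uniSp2, 0.0029 at a threshold of 40%, 0.11 without the libraries near the threshold, 0.00824 with OA group and age, and with a horse left out lay between -0.29 and 0.062, positive without M2, M4, S7 or S11. miR-23b turned to 0.0053 with age, 0.044 at 40% and 0.079 with OA group and age. At 40% the male share turned to -18.3 points and the plasma share to 5.08 points, which was 3.90 without the libraries near the threshold. OA group with age, the fit without miR-486-3p and the interaction were added after seeing the data. No paired analysis was possible because each class holds different horses. With 47537 to 367110 other miRNA reads per library, miRNAs under 10 CPM rest on at most 3 reads in a library.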
